A study of Homo sapiens with 6 samples.

Results

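Stress granules are clusters of stalled mRNAs and RNA-binding proteins that form in the cytoplasm when the start of translation is blocked, and they dissolve again when translation resumes. G3BP1 and its paralog G3BP2 bind RNA and are the proteins on which granule assembly rests, CAPRIN1, USP10 and UBAP2L bind them and adjust assembly, and TIA1, TIAL1, ATXN2, ATXN2L and FMR1 are RNA-binding proteins that gather in the granules. The expression of these 10 genes was followed in MDA-MB-231 cells with reduced YAP1. YAP1 is a transcriptional co-activator of the Hippo pathway, which acts on DNA mainly through TEAD factors. The set was put together because G3BP2 was already known to be higher with the YAP1 hairpin in these same libraries, and the question was how its paralog and the other granule genes stood beside it. The difference between the groups therefore chose the set, and the values of its 10 members are a description. The members were in the fit over all genes, but no p of theirs is given, and how many of them passed its threshold is no evidence about the set. The 10 genes were found by symbol among 60612 gene identifiers, and all 10 reached the expression minimum that left 14770 genes for testing.

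MDA-MB-231 is an established human cell line from a triple-negative breast cancer. The cells stably expressed a control short hairpin RNA (Sh-NC, with the genotype given as WT) or a hairpin against YAP1 (Sh-YAP1), received no treatment, and were taken on day 3 with 3 libraries in each group. It is 1 cell line with 1 group of YAP1 hairpin cells, and the labels number the libraries without saying whether they came from separate cultures, so the spread may be partly technical. Values are FPKM (sequenced fragments divided by transcript length and by library size) summed over all transcript entries of a gene, so they are per length, though a sum also depends on which transcripts the fragments were assigned to. Where 3 values of a group are given, they are in the order of replicates 1, 2 and 3. In bulk RNA a higher level in every cell and a much higher level in some cells cannot be told apart.

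YAP1, the targeted gene, was at 28.12, 26.24 and 22.87 FPKM in the Sh-NC libraries and at 3.35, 2.67 and 2.58 FPKM in the Sh-YAP1 libraries. It fell by 2.79 on the log2 scale (SE 0.12, adjusted p = 0.0018, limma with Benjamini-Hochberg adjustment). Of the markers used to check the cell line, VIM, CD44, AXL and CAV1 were abundant and SPARC was low, at 1.06 to 3.85 FPKM. AXL was at 251.37 to 261.44 FPKM in the Sh-NC libraries and 190.18 to 208.43 FPKM in the Sh-YAP1 libraries. Among markers of luminal or epithelial cells, ESR1, PGR and CDH1 stayed under 0.5 FPKM in every library. EPCAM reached 3.27 FPKM, GATA3 7.34 FPKM and FOXA1 1.03 FPKM. Besides AXL, the markers CAV1, SPARC and FOXA1 were lower in Sh-YAP1 with no overlap between the groups, beside 14.7% of all genes tested. The other markers overlapped. CAV1 was at 329.08 to 342.07 FPKM in the Sh-NC libraries and 169.69 to 272.96 FPKM in the Sh-YAP1 libraries. In the comparison of the groups by limma with Benjamini-Hochberg adjustment, 3.38% of all 14770 genes passed an adjusted p of 0.05, with 1.75% higher and 1.62% lower in Sh-YAP1, and the median log2 fold change was -0.00138. Fold changes are on the log2(FPKM + 1) scale throughout, and the depth of the libraries is unknown.

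G3BP2 (ENSG00000138757) lies on the minus strand of chromosome 4 at chr4:75642782-75724525, and G3BP1 (ENSG00000145907) on the plus strand of chromosome 5 at chr5:151771045-151812785, both in GENCODE 29 on GRCh38. In RefSeq on GRCh38.p14, 5 start sites of G3BP2 and 1 of G3BP1 were listed. Of these, 3 windows of 300 bases (250 before and 50 after the start, read 5′ to 3′ on the strand of the gene) are shown, to set the member that rose beside its paralog. The first is the only window of any member with the letters GGAATG, a core of the TEAD motif. The match is in capitals, read from the opposite strand, and its first printed base is 1 base before the annotated start. The second window lies at the far end of the gene and faces the neighbouring gene USO1.

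G3BP2 start, minus strand, chr4:75673108-75673407: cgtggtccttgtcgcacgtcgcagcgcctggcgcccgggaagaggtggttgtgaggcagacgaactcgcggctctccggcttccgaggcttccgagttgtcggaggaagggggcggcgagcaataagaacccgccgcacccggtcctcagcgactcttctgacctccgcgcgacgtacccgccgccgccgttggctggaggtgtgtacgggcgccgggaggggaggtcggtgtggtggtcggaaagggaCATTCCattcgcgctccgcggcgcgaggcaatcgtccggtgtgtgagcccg

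G3BP2 far start, minus strand, chr4:75724388-75724687: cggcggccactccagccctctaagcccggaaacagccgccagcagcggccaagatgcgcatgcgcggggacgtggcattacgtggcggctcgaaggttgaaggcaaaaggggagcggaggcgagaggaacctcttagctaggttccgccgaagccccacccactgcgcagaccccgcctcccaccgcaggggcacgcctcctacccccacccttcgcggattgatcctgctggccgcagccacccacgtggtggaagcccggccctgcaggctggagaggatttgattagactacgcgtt

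G3BP1 start, plus strand, chr5:151771704-151772003: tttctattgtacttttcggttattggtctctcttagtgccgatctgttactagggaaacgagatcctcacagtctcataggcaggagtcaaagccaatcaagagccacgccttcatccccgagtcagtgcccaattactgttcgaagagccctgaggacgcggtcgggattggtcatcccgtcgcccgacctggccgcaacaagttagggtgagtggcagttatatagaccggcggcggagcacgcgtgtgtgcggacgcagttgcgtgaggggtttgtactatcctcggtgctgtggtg

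The letters GGAATG, searched on both strands, were found in 14.0% of 35116 RefSeq start windows of this length and in 1 of 16 windows of the 9 members that had any (ATXN2 had none). TGANTCA, the core of the AP-1 motif with N for any base, was found on either strand in 7.71% of all windows and in 1 of the 16, at UBAP2L (chr1:154220599-154220898, plus strand). These are matches of letters only, and no binding was measured.

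G3BP2 was at 29.8, 29.95 and 31.01 FPKM in the Sh-NC libraries. With the YAP1 hairpin it was at 82.57, 80.5 and 89.21 FPKM. Each of the 3 Sh-YAP1 libraries was far above each of the 3 Sh-NC libraries, and neither group spread widely. Means (± SD, n = 3) were 30.3 ± 0.66 FPKM for Sh-NC and 84.1 ± 4.55 FPKM for Sh-YAP1, a ratio of 2.78 and a log2 fold change of 1.44 (SE 0.07). Only 11 of the 14770 genes tested had a larger log2 fold change, and among the 8756 genes that averaged 5 FPKM or more the increase of G3BP2 ranked 8. Leaving out any 1 library gave a log2 fold change between 1.40 and 1.47.

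G3BP1, the paralog, differed by less than the spread between its libraries. Its values were 56.6, 29.44 and 41.96 FPKM in the Sh-NC libraries and 47.4, 31.5 and 35.14 FPKM in the Sh-YAP1 libraries. The groups overlapped, and in both of them replicate 1 was the highest library and replicate 2 the lowest. With means of 42.7 ± 13.6 and 38.0 ± 8.33 FPKM (SD, n = 3 each), the log2 fold change was -0.14 (SE 0.25). The spread of G3BP1 in Sh-NC was 31.9% of its mean, against 2.18% for G3BP2, and leaving out 1 library at a time moved its log2 fold change between -0.37 (without Sh-NC replicate 2) and 0.09 (without Sh-NC replicate 1).

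The balance of the pair shifted accordingly. The ratio of G3BP2 to G3BP1 was 0.527, 1.02 and 0.739 in Sh-NC replicates 1 to 3, and 1.74, 2.56 and 2.54 in Sh-YAP1 replicates 1 to 3. G3BP2 thus made up 34.5%, 50.4% and 42.5% of the summed FPKM of the pair in Sh-NC and 63.5%, 71.9% and 71.7% in Sh-YAP1. Both paralogs were near equal in Sh-NC replicate 2 alone, and in the other Sh-NC libraries G3BP1 was the higher of the pair. In Sh-NC replicate 1 this rested on a G3BP1 entry at 28.01 FPKM that was listed at 0 in replicates 2 and 3. Without it G3BP1 was at 28.59 FPKM there, beside 29.8 FPKM for G3BP2. The ratio, share and sum of replicate 1 include this entry in both groups. In all 3 Sh-YAP1 libraries G3BP2 was the higher. The summed FPKM of the pair was 72.9 ± 13.5 in Sh-NC and 122 ± 9.19 in Sh-YAP1 (SD, n = 3 each), so the total did not stay level as the share of G3BP2 grew.

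**Figure D1:**
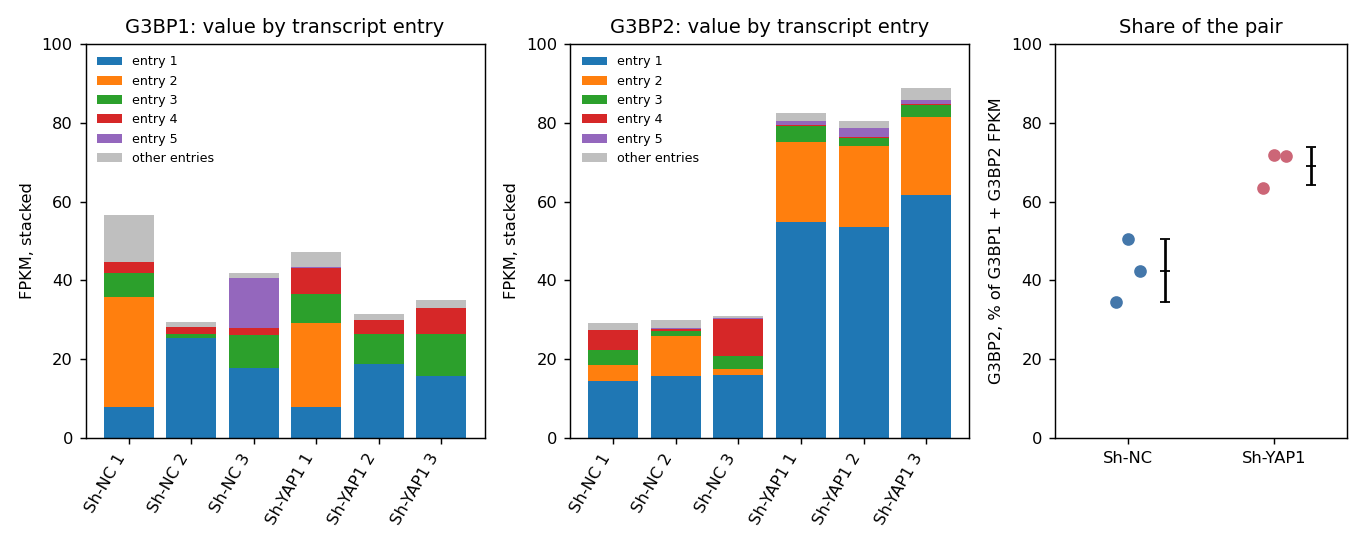
Left and centre, FPKM of G3BP1 and G3BP2 in each library, stacked by transcript entry; entries are ranked within each gene by their mean, and grey is the sum of all others. Right, G3BP2 as a percentage of the summed FPKM of both genes, with points for libraries (Sh-NC blue, Sh-YAP1 red) and bars for mean ± SD (n = 3). G3BP2 stands above 80 FPKM in the 3 Sh-YAP1 libraries, mostly in entries 1 and 2, while the G3BP1 bars of the groups overlap.

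The files hold 1 value per transcript entry without a transcript identifier, so the entries of a gene are ranked here by mean FPKM. G3BP2 had 19 entries, and 11 of them averaged 0.1 FPKM or more. The leading entry was at 14.53, 15.88 and 15.95 FPKM in the Sh-NC libraries and at 54.89, 53.48 and 61.79 FPKM in the Sh-YAP1 libraries. It held 51.1% of the FPKM of G3BP2 in Sh-NC and 67.4% in Sh-YAP1, and it carried 76.6% of the increase of 53.8 FPKM. The next entry was at 3.99, 9.94 and 1.49 FPKM in the Sh-NC libraries and at 20.26, 20.56 and 19.81 FPKM in the Sh-YAP1 libraries, which was 28.0% of the increase. These leading entries were 3.67 and 3.93 times higher in Sh-YAP1 by their means, so the increase was not in a single entry.

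The fourth entry of G3BP2 went the other way. Its values were 5.04, 0.4 and 9.31 FPKM in the Sh-NC libraries and 0.3, 0.29 and 0.23 FPKM in the Sh-YAP1 libraries, with Sh-NC replicate 2 close to the Sh-YAP1 libraries. Of the 11 entries, 5 were higher in Sh-YAP1 with no overlap between the groups, 1 was lower and 5 overlapped, beside 6.34% higher and 6.8% lower of the entries of all genes. Nothing is read from this count, since the rise of G3BP2 chose the set. Without the leading entry the gene value was still 15.27, 14.07 and 15.06 FPKM in the Sh-NC libraries and 27.68, 27.02 and 27.42 FPKM in the Sh-YAP1 libraries, a log2 fold change of 0.85. The annotated transcripts of G3BP2 run from 338 to 4883 bases, and since FPKM divides by length, a summed value also depends on which transcripts the fragments were assigned to. How much of the increase depends on that assignment was not tested.

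G3BP1 had 14 entries, of which 8 averaged 0.1 FPKM or more. Its leading entry was at 7.9, 25.42 and 17.83 FPKM in the Sh-NC libraries and at 7.78, 18.92 and 15.83 FPKM in the Sh-YAP1 libraries. The next entry was at 28.01 FPKM in Sh-NC replicate 1 and 21.33 FPKM in Sh-YAP1 replicate 1, and was listed at 0 in the other 4 libraries. In replicate 1 of both groups, then, the leading entry was low where the next was high. Without that entry G3BP1 was at 28.59, 29.44 and 41.96 FPKM in the Sh-NC libraries and at 26.07, 31.5 and 35.14 FPKM in the Sh-YAP1 libraries, with a log2 fold change of -0.09. An entry at 12.58 FPKM in Sh-NC replicate 3 was at most 0.22 FPKM in every other library.

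The annotated transcripts of the paralogs share 0 exact runs of 31 bases with each other. Transcripts of other genes also hold 2.69% of the 31-base runs of G3BP2 and 2.92% of those of G3BP1.

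CAPRIN1, an RNA-binding partner of both G3BP proteins that favours granule assembly (chr11:34051683-34101156, plus strand), was the most abundant of the set. It was at 149.68, 150.61 and 161.39 FPKM in the Sh-NC libraries and at 172.72, 169.52 and 166.68 FPKM in the Sh-YAP1 libraries. Its 3 Sh-YAP1 libraries all lay above its 3 Sh-NC libraries, by a small margin, and its log2 fold change was 0.14 (SE 0.06). The leading entry held 71.1% of its FPKM and was at 104.48 to 114.04 FPKM in the Sh-NC libraries and 119.45 to 122.41 FPKM in the Sh-YAP1 libraries.

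USP10, a deubiquitinase that competes with CAPRIN1 for G3BP and works against assembly (chr16:84699978-84779922, plus strand), was at 32.43, 27.08 and 28.47 FPKM in the Sh-NC libraries. With the YAP1 hairpin it was at 25.7, 28.34 and 29.02 FPKM. The groups overlapped, with a log2 fold change of -0.08 (SE 0.09). Its leading entry was at 17.14, 21.9 and 14.37 FPKM in the Sh-NC libraries and at 23.35, 19.18 and 23.09 FPKM in the Sh-YAP1 libraries. Of the 31-base runs of USP10, 16.6% also occur in other genes, the highest share of the set.

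UBAP2L, a partner of G3BP that promotes assembly (chr1:154220179-154271510, plus strand), was at 104.75, 110.23 and 105.11 FPKM in the Sh-NC libraries and at 132.57, 105.14 and 96.55 FPKM in the Sh-YAP1 libraries. The Sh-YAP1 libraries lay on both sides of the Sh-NC libraries, and the log2 fold change was 0.05 (SE 0.12). Beneath this level 16 of its 20 entries overlapped between the groups. With no overlap 1 was higher and 3 were lower, beside 6.34% higher and 6.8% lower of the entries of all genes. The sixth of its 20 entries was at 17.01, 16.05 and 16.58 FPKM in the Sh-NC libraries but at 0.6, 0.4 and 1.17 FPKM in the Sh-YAP1 libraries, going from 15.5% to 0.649% of the gene. The leading entry varied more between libraries of 1 group than between groups, at 7.98, 31.02 and 8.86 FPKM in the Sh-NC libraries and 60.43, 2.27 and 59.18 FPKM in the Sh-YAP1 libraries.

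TIA1, an RNA-binding protein with a prion-like tail that was among the first markers of stress granules (chr2:70209444-70248660, minus strand), was at 16.88, 19.04 and 19.46 FPKM in the Sh-NC libraries and at 16.35, 17.89 and 15.06 FPKM in the Sh-YAP1 libraries. The log2 fold change was -0.16 (SE 0.09), and Sh-NC replicate 1 lay below Sh-YAP1 replicate 2. Its leading entry was at 7.53, 7.18 and 7.54 FPKM in the Sh-NC libraries and at 6.03, 7.13 and 5.72 FPKM in the Sh-YAP1 libraries, and the third of its entries went the opposite way, from 1.74, 2.11 and 1.83 FPKM to 3.33, 2.49 and 3.49 FPKM. TIAL1, the paralog of TIA1 (chr10:119571802-119597029, minus strand), was at 33.67, 44.07 and 43.23 FPKM in the Sh-NC libraries and at 37.3, 39.05 and 25.8 FPKM in the Sh-YAP1 libraries. The log2 fold change was -0.25 (SE 0.18), the largest of the 9 members beside G3BP2 in either direction. Sh-YAP1 replicate 3 was the low library, and there the leading entry of TIAL1 was at 1.17 FPKM, against 11.68 to 21.74 FPKM in the other 5 libraries. Without that library the log2 fold change of TIAL1 was -0.07.

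ATXN2, an RNA-binding protein that binds the poly(A)-binding protein and whose repeat expansion causes a spinocerebellar ataxia (chr12:111443485-111599676, minus strand), was at 18.8, 14.25 and 16.5 FPKM in the Sh-NC libraries and at 15.91, 12.45 and 16.44 FPKM in the Sh-YAP1 libraries. These libraries overlapped between the groups, at a log2 fold change of -0.14 (SE 0.14). It had 43 entries, more than any other member, and the leading entry held only 11.7% of its FPKM. ATXN2L, its paralog (chr16:28823035-28837237, plus strand), was at 34.77, 31.22 and 32.46 FPKM in the Sh-NC libraries and at 35.99, 32.07 and 40.14 FPKM in the Sh-YAP1 libraries, a log2 fold change of 0.13 (SE 0.10) with overlap. An ATXN2L entry at 11.71, 11.46 and 1.43 FPKM in the Sh-NC libraries was at 1.13, 1.4 and 0.04 FPKM in the Sh-YAP1 libraries. Another, listed at 0 in the first and the second Sh-NC library, stood at 9.55 FPKM in the other and at 10.16, 12.93 and 3.74 FPKM in the Sh-YAP1 libraries.

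FMR1, which encodes the translational repressor lost in fragile X syndrome (chrX:147911951-147951125, plus strand), was the least expressed member. It was at 7.25, 5.87 and 7.38 FPKM in the Sh-NC libraries and at 7.18, 6.89 and 5.64 FPKM in the Sh-YAP1 libraries, with a log2 fold change of -0.05 (SE 0.12). The groups overlapped over nearly their whole range. FXR1 and FXR2, the paralogs of FMR1, gave log2 fold changes of 0.24 (SE 0.11, adjusted p = 0.255, limma with Benjamini-Hochberg adjustment) and -0.04 (SE 0.07, adjusted p = 0.784). UBAP2, the paralog of UBAP2L, gave -0.03 (SE 0.13, adjusted p = 0.919, from the same limma fit).

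**Figure D2:**
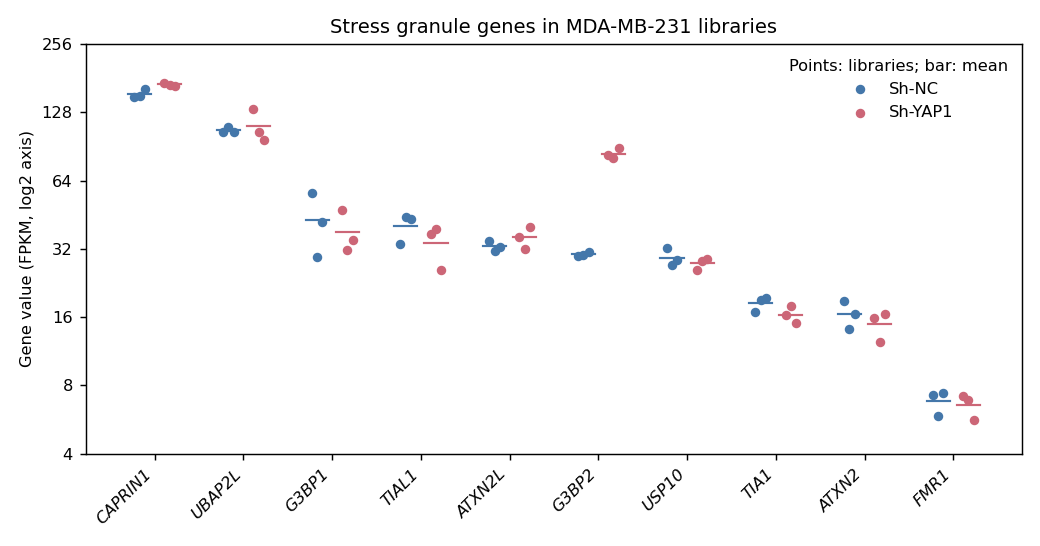
Gene value of the 10 stress granule genes in FPKM on a log2 axis, ordered by mean in Sh-NC. Points are libraries (Sh-NC blue, Sh-YAP1 red; n = 3 each) and bars are means; G3BP2 moves from 30.3 to 84.1 FPKM while the other 9 genes stay near their Sh-NC level.

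In Sh-NC the levels of the set, from high to low, were in the order CAPRIN1, UBAP2L, G3BP1, TIAL1, ATXN2L, G3BP2, USP10, TIA1, ATXN2 and FMR1. The libraries of G3BP1 and TIAL1, of TIAL1 and ATXN2L, of G3BP2 and USP10, and of TIA1 and ATXN2 overlapped, so those neighbours could not be ordered beyond their spread. In Sh-YAP1 G3BP2 came after CAPRIN1 and UBAP2L, moving from place 6 to place 3. The other members kept the same order except that ATXN2L came before TIAL1.

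G3BP2 was the 1 member of 10 whose adjusted p in limma (Benjamini-Hochberg) was under 0.05, beside 3.38% of all genes. It was higher, beside 1.75% of all genes, and 0 members were lower by this measure, beside 1.62%. G3BP2 and CAPRIN1 were higher with no overlap between the groups, beside 14.6% of all genes, and 0 members were lower with no overlap, beside 14.7%. Nothing is read from these counts, since the set was chosen on this difference. The median log2 fold change was -0.0638 over the 10 members and -0.0781 without G3BP2, and the 9 other members lay between -0.25 and 0.14. Of 140 entries of the 10 genes that averaged 0.1 FPKM or more, 11 were higher with no overlap (7.86%), beside 6.34% of the 77655 such entries of all genes. There were 8 lower entries (5.71%), beside 6.8% of all. Without the entries of G3BP2 the shares were 4.65% and 5.43% of 129.

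The gene next to G3BP2 was looked at because it starts from the same stretch of DNA as the far start, 1 of the 5 listed for G3BP2. Which of these starts was in use was not tested. USO1, which encodes a protein that tethers vesicles on their way to the Golgi (chr4:75724593-75814286, plus strand), begins 68 bases beyond the far end of G3BP2 and is read in the opposite direction. The window of the far start of G3BP2 shown above includes the first bases of USO1. USO1 was at 15.12, 15.99 and 15.34 FPKM in the Sh-NC libraries and at 20.85, 19.25 and 20.82 FPKM in the Sh-YAP1 libraries, with no overlap. It rose by a log2 fold change of 0.37 (SE 0.07, adjusted p = 0.0471, limma with Benjamini-Hochberg adjustment). The adjusted p of USO1 was between 0.104 and 0.146 when any 1 of the 6 libraries was left out. It was 0.0501 with median centring, 0.0636 without the mean-variance trend, 0.0673 with no filter, 0.0739 without entries above 1 FPKM in a single library and 0.17 with the replicate number as a block. Of the other neighbours, CDKL2 and ODAPH stayed under 1 FPKM and PPEF2 was listed at 0 in all 6 libraries.

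Among genes that averaged 5 FPKM or more, those whose 6 values lay closest to G3BP2 were FAM210B, RNASEH2C, GANAB, BCAP29 and LTBP1. Likeness was the root mean square difference over the 6 libraries of log2(FPKM + 1) less the Sh-NC mean of the gene, and it ran from 0.122 for FAM210B to 0.245 for LTBP1. Their log2 fold changes were 1.36, 1.34, 1.33, 1.32 and 1.15, which are a description, since the genes were picked by these values. Without entries above 1 FPKM in a single library that of LTBP1 was 1.73. GANAB, a glucosidase subunit that trims glycans in the endoplasmic reticulum, was the most abundant, at 46.88 to 61.12 FPKM in the Sh-NC libraries and 124.48 to 141.15 FPKM in the Sh-YAP1 libraries. None of the 5 is on the lists of granule genes used here, and their pattern was matched over 6 libraries of only 2 groups.

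**Figure D3:**
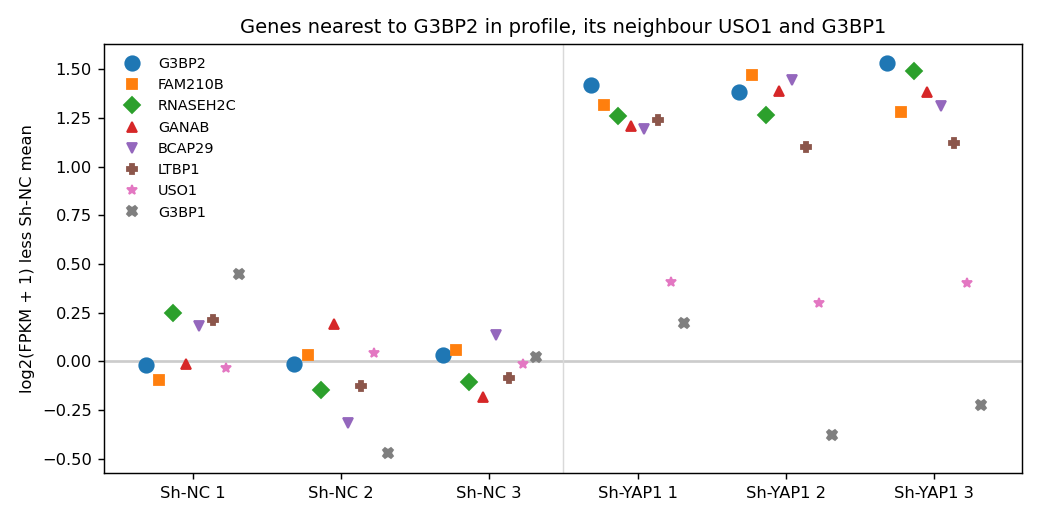
log2(FPKM + 1) of G3BP2, the 5 genes of closest profile, USO1 and G3BP1 in each library, less the Sh-NC mean of each gene; points side by side belong to 1 library. The 5 genes and G3BP2 lie above 1 in all Sh-YAP1 libraries, USO1 lies between them and 0, and G3BP1 lies within its own Sh-NC range.

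The rest of the granule machinery was covered by 6 lists, put together by the known roles of their genes but with earlier results of these data known. Among 47 other RNA-binding proteins found in stress granules, 46 were tested and IGF2BP1 was too low. Of the 46, 2 rose, IGF2BP3 and TAF15, beside 1.75% of all genes, and the median log2 fold change was -0.0233. An unadjusted p under 0.05 was reached by 7 of the 46, beside 21.9% of all genes. IGF2BP3, an mRNA-stabilising protein of the IGF2 mRNA-binding family, was at 34.12, 35.21 and 34.47 FPKM in the Sh-NC libraries and at 57.93, 55.55 and 56.28 FPKM in the Sh-YAP1 libraries, a log2 fold change of 0.69 (SE 0.06, adjusted p = 0.00686, limma with Benjamini-Hochberg adjustment). With the replicate number as a block the adjusted p of IGF2BP3 in limma was 0.103. Its relative IGF2BP2 gave -0.24 (SE 0.09) with an adjusted p of 0.18 in the limma fit without a block.

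TAF15, a nuclear RNA-binding protein that takes part in transcription and splicing, was at 107.93, 102.89 and 99.51 FPKM in the Sh-NC libraries and at 136.48, 130.96 and 126.59 FPKM in the Sh-YAP1 libraries, with no overlap. It rose by 0.34 on the log2 scale (SE 0.07, adjusted p = 0.0467, limma with Benjamini-Hochberg adjustment). With any 1 of the 6 libraries left out, the adjusted p of TAF15 was 0.0981 to 0.138. It was 0.0538 with median centring, 0.0798 without the mean-variance trend, 0.0795 with no filter and 0.0566 without entries above 1 FPKM in a single library. With the replicate number as a block it was 0.151.

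Of 21 translation initiation factors that are held in granules, 0 rose, 2 fell and 19 did not pass, beside 3.38% of all genes that passed, and the median was -0.0292. An unadjusted p under 0.05 in limma was reached by 7 of the 21, and by 21.9% of all genes tested. EIF4H, which helps the helicase eIF4A to unwind mRNA, was at 166.2, 179.13 and 160.23 FPKM in the Sh-NC libraries and at 89.38, 97.48 and 91.82 FPKM in the Sh-YAP1 libraries. It fell by 0.85 on the log2 scale (SE 0.07, adjusted p = 0.00686, limma with Benjamini-Hochberg adjustment). EIF3M, a subunit of eIF3, was at 70.66, 60.24 and 65.66 FPKM in the Sh-NC libraries and at 39.03, 46.68 and 45.11 FPKM in the Sh-YAP1 libraries, and fell by 0.58 (SE 0.10, adjusted p = 0.0341, same fit). The adjusted p of EIF3M was 0.0739 to 0.114 with any 1 of the 6 libraries left out, 0.0689 with no filter and 0.0599 without entries above 1 FPKM in a single library. With the replicate number as a block the adjusted p in limma was 0.0996 for EIF4H and 0.152 for EIF3M.

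The eIF2 pathway sets off stress granules when one of its kinases phosphorylates eIF2α. Of its 14 genes 1 rose, 0 fell and 13 did not pass, beside 3.38% of all genes that passed, and the median was -0.0713. An unadjusted p under 0.05 was reached by 4 of the 14, beside 21.9% of all genes. EIF2B2, a subunit of the exchange factor that recharges eIF2, was at 29.71, 28.88 and 27.08 FPKM in the Sh-NC libraries and at 43.37, 49.06 and 40.77 FPKM in the Sh-YAP1 libraries, and rose by 0.62 (SE 0.09, adjusted p = 0.0242, limma with Benjamini-Hochberg adjustment). It was at an adjusted p of 0.0558 to 0.0824 with any 1 of the 6 libraries left out, and at 0.121 with the replicate number as a block. The kinases EIF2AK1, EIF2AK2, EIF2AK3 and EIF2AK4 gave log2 fold changes of -0.08, -0.14, 0.13 and 0.10, and none passed in limma.

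Processing bodies are cytoplasmic bodies of mRNA decay factors that can dock with stress granules. Of 24 such genes none passed (limma, Benjamini-Hochberg), beside 3.38% of all genes. An unadjusted p under 0.05 was reached by 6, a share near the 21.9% of all genes, and the median was -0.029. Among 17 genes that modify granules or clear them, 16 were tested, since ULK2 was listed at 0 in all libraries. The median was -0.155, and FAF2, an adaptor of the segregase VCP, was the 1 that passed, lower in Sh-YAP1, beside 1.62% of all genes. Of the 16, 6 had an unadjusted p under 0.05, beside 21.9% of all genes. FAF2 was at 30.06, 31.81 and 30.25 FPKM in the Sh-NC libraries and at 23.78, 23.13 and 24.87 FPKM in the Sh-YAP1 libraries, and fell by 0.35 (SE 0.07, adjusted p = 0.048, limma with Benjamini-Hochberg adjustment), with an adjusted p of 0.0996 to 0.144 with any 1 of the 6 libraries left out. Its adjusted p was 0.0506 with quantile normalization, 0.0719 without the mean-variance trend, 0.0646 with no filter and 0.0573 without entries above 1 FPKM in a single library. With the replicate number as a block it was 0.17. Of 7 other proteins reported to bind G3BP, TWIST1 was listed at 0 in all libraries. The other 6 did not pass in limma, beside 3.38% of all genes that passed, and 2 of them had an unadjusted p under 0.05, beside 21.9%. RASA1, the GTPase-activating protein after which G3BP was named, was at 15.36 to 17.02 FPKM in the Sh-NC libraries and 19.25 to 20.49 FPKM in the Sh-YAP1 libraries, with a log2 fold change of 0.29 (SE 0.07, adjusted p = 0.087 in limma). MDM2, the ubiquitin ligase that degrades p53, was at 4.54 to 6.86 FPKM in the Sh-NC libraries and 3.81 to 4.03 FPKM in the Sh-YAP1 libraries, with a log2 fold change of -0.49 (SE 0.15, adjusted p = 0.122 in limma).

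**Figure D4:**
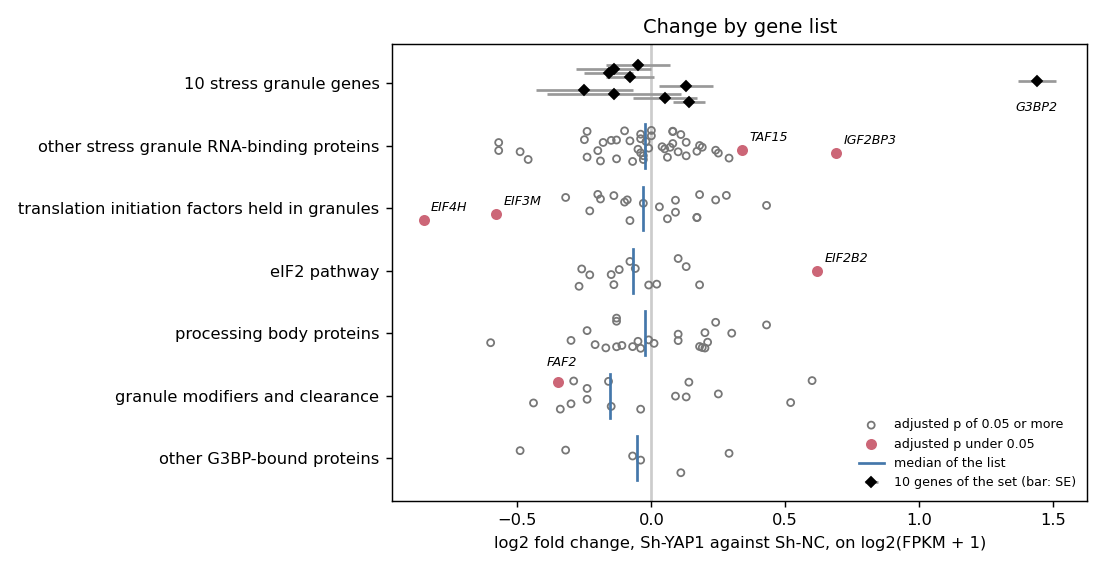
Log2 fold change of Sh-YAP1 against Sh-NC on log2(FPKM + 1) for the 10 stress granule genes (diamonds, bars are SE) and for the tested genes of 6 lists, with 1 gene not shown. Circles are genes, filled where the adjusted p is under 0.05 (limma, Benjamini-Hochberg), vertical position within a row has no meaning, and lines mark medians, which all lie between -0.155 and -0.0233; G3BP2 at 1.44 lies beyond every listed gene.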

How the data were processed

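Total RNA of 6 libraries of MDA-MB-231 cells (3 Sh-NC, 3 Sh-YAP1) was sequenced by a company for the authors. The authors deposited FPKM values with 2 decimals for 229420 transcript entries per library, with the gene identifier of each entry. The submitters' processing notes name Bowtie 0.12.2, HISAT2 2.0 and hg19 without their roles, while the number of entries equals that of the GENCODE 29 transcripts on GRCh38 for 9 of the 10 members (ATXN2 had 43 entries against 35 transcripts). The quantification tool is not given in the sources used here. Sums per library were 467493 to 475116 FPKM, counts and depth are unknown, and values at 0 can be failed estimates.

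FPKM were summed per gene, and the genes that averaged 0.5 FPKM or more were compared as log2(FPKM + 1) in R 4.3.3 with limma 3.58.1 (eBayes, mean-variance trend on), with Benjamini-Hochberg adjustment over 14770 genes and without a covariate. Each p measures only the spread between these libraries. The code was tested on simulated data. Alternatives were pseudocounts of 0.1 and 0.01, quantile normalization, median centring, no trend, no filter or a minimum of 1 FPKM, other gene sums, the replicate number as a block, and leaving out each library. Sequences came from RefSeq on GRCh38.p14, where 9 of the 10 members had a start window.

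The members and lists were chosen with earlier results of these data known. The genes named were the 10 members, YAP1, up to 4 rising and 4 falling genes of each list with an adjusted p under 0.05, the 5 genes closest to G3BP2 in profile, and the 2 coding genes on each side of it. FXR1, FXR2, UBAP2, IGF2BP2, the eIF2 kinases, RASA1 and MDM2 were added after their values were seen. The result of 1 gene on the lists is not reported here.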

Additional observations from a re-analysis of the deposited data

How the results depend on the processing

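The log2 fold change of G3BP2 was 1.43 to 1.47 under other settings and 1.40 to 1.47 without any 1 library. Without its largest entry it was 0.83 to 0.89 and 0.81 to 0.87. The filter, the trend and the block leave a fold change as it is by construction, so they say nothing about its stability. The log2 ratio of G3BP2 to G3BP1 differed by 1.58 between the groups, by 1.33 to 1.61 under other settings and by 1.34 to 1.81 without any 1 library. The CAPRIN1 log2 fold change was 0.20 with quantile normalization, and that of ATXN2L was 0.00 without entries above 1 FPKM in a single library. Without the same entries that of G3BP1 was 0.11, against -0.14 in the main fit, and that of FMR1 was -0.14, against -0.05. Without any 1 library the UBAP2L value was -0.08 to 0.15 and the FMR1 value -0.14 to 0.04, so the sign of both could change. Those of USP10, TIA1, TIAL1 and ATXN2 stayed negative, and those of CAPRIN1 and ATXN2L stayed positive.

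The number of genes called (limma, Benjamini-Hochberg adjusted p under 0.05) depended on the settings. It was 499 of all genes, 232 with no filter, 1 with the replicate block and 80 to 170 without any 1 library. With the replicate block 2779 genes had an unadjusted p under 0.05. Same-numbered libraries of the groups shared little, with correlations of their deviations of -0.0285, 0.0621 and 0.0042, so the numbers were not taken as pairs, and not every library correlated best with its own number. With the block 0 members, 0 of the RNA-binding proteins, 0 initiation factors, 0 eIF2 pathway genes and 0 modifiers passed, and G3BP2 lost its call.

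The RNA-binding proteins had 1 call with no mean-variance trend, with no filter and without entries above 1 FPKM in a single library, and 1 without any 1 library. The initiation factors had 1 call with no filter, without the single-library entries and without any 1 library. The eIF2 pathway had 0 calls without any 1 library. The modifiers had 0 calls with quantile normalization, no mean-variance trend, no filter, without the single-library entries and without any 1 library. The member called stayed 1 without any 1 library, which is no evidence, since the rise of G3BP2 chose the set. The processing body and G3BP-bound lists had 0 calls throughout. Fewer samples entered the fits without a library, and otherwise the cause was not tested. IGF2BP3 and EIF4H lost their calls with the block only, at adjusted p values of 0.103 and 0.0996 in limma. TAF15, FAF2, EIF3M and EIF2B2 lost theirs with the block (adjusted p of 0.121 to 0.17 in limma) and without any 1 library. TAF15, FAF2 and EIF3M also lost theirs with no filter and without the single-library entries, TAF15 and FAF2 with no mean-variance trend, TAF15 with median centring and FAF2 with quantile normalization. The 5 genes closest to G3BP2 in profile were picked by the difference between the groups, so whether they passed is no evidence about them. Without any 1 library their log2 fold changes ran from 1.09 (the lowest of LTBP1) to 1.46 (the highest of RNASEH2C).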
